A study of Mus musculus with 7 samples.

Results

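The collagen genes are the mouse genes whose symbol is Col, a number, a and a number, which gave 44 of the 55450 genes annotated on GRCm38 (GENCODE mouse release 21). Their methylated and hydroxymethylated regions were taken from 4 peak lists made during chondrogenic differentiation of ATDC5, a mouse chondroprogenitor line. A peak was counted as a collagen peak if its row carried such a symbol or if it overlapped, by at least 1 bp, the gene body or the 5000 bp before its start. This gave 38 of 8949 peaks. Of these, 36 were found by position and 2 by the symbol alone, and 2 lay in Col26a1 but carried an older symbol of that gene.

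All cells were grown in serum-containing medium with ascorbic acid, and differentiation was started by adding insulin, transferrin and selenite. The 7 samples of the labels were day 0 input DNA, day 0 progenitor DNA enriched for 5-methylcytosine (5mC), day 10 DNA enriched for 5mC (1 sample each), and DNA enriched for 5-hydroxymethylcytosine (5hmC) at day 5 and at day 10 (2 samples each). Each enriched group had 1 peak list, with 326 peaks for day 0 5mC, 2401 for day 10 5mC, 2058 for day 5 5hmC and 4164 for day 10 5hmC. The lists gave positions, with no height or count, and the 2 numbered samples of each 5hmC day were merged. No value below therefore has a replicate spread, no test between days or marks was possible, and library depth is not known. The 5mC lists were made at 3-fold enrichment and the 5hmC lists at 10-fold, and the sample set against each list is not named. A gene absent from a list is therefore a gene without a listed peak and not a gene without the mark. Days are given here as in the labels. The text of the study has other days, and its stages would place the later 5hmC list in intermediate cells but the later 5mC list in chondrocytes, so those lists could come from different days. The label of the cells could not be checked against marker genes, since the samples are DNA.

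5mC is the methyl mark that DNA methyltransferases place on cytosine, mostly at CpG sites. TET enzymes oxidise it to 5hmC, which is found in the bodies of active genes and at enhancers and is also a step on the way to unmodified cytosine. Collagens are triple-helical proteins of the extracellular matrix. Cartilage is built on fibrils of collagen II with collagens IX and XI, hypertrophic chondrocytes make collagen X, and collagen VI forms the fine filaments around each chondrocyte.

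The number of collagen peaks differed between the lists, which also differ in size. Collagen peaks were 0 of 326 in the day 0 5mC list and 6 of 2401 in the day 10 5mC list. They were 9 of 2058 in the day 5 5hmC list and 23 of 4164 in the day 10 5hmC list. In all, 22 of the 44 genes had a peak in at least 1 list, 11 of them a single peak and 11 more than 1. The other 22 had none. Col6a6 and Col27a1 were the genes listed for 5mC at day 10 and for 5hmC on both days.

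**Figure D1:**
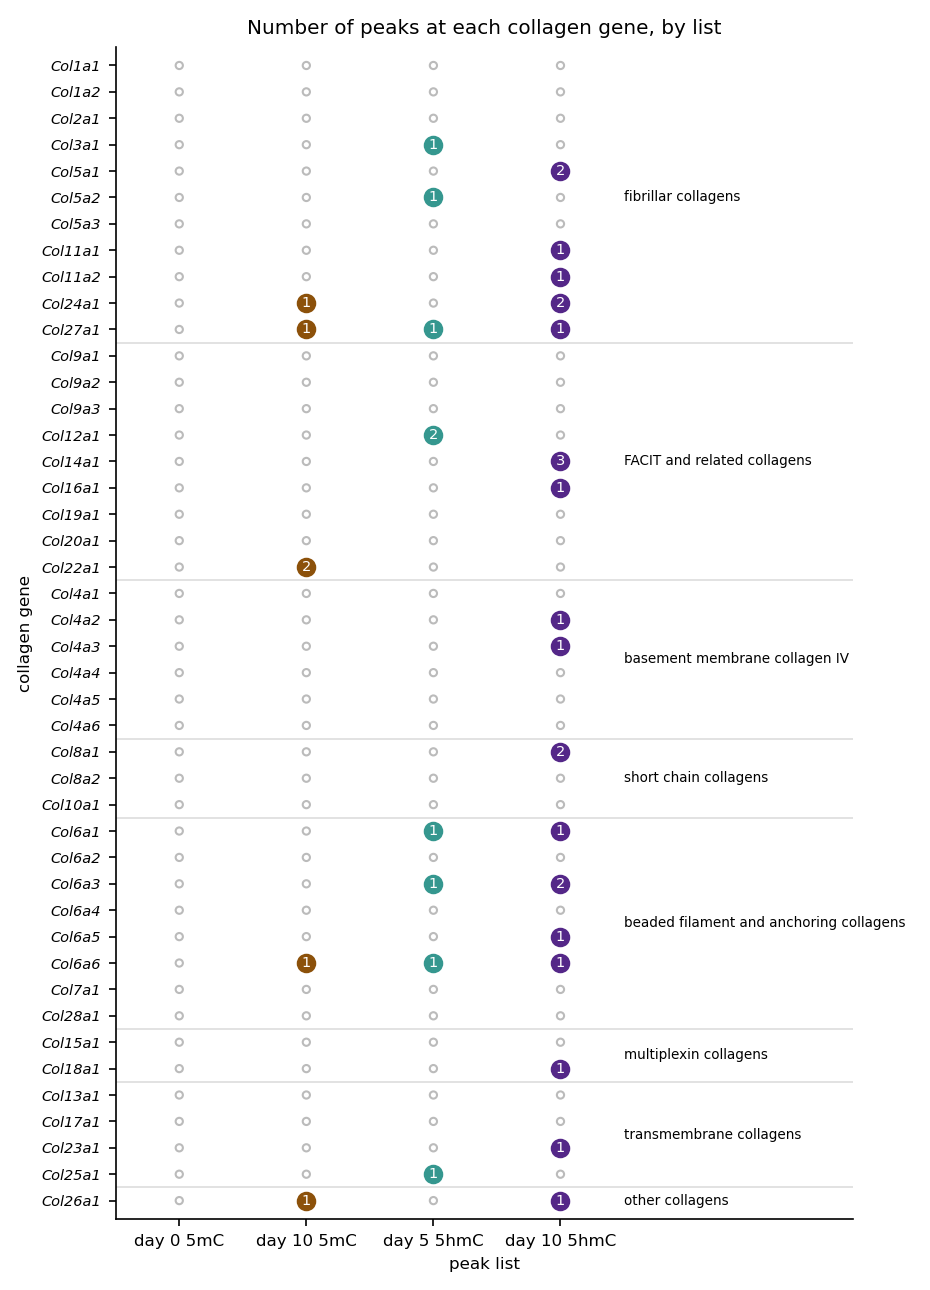
Number of peaks at each of the 44 collagen genes (rows, grouped by collagen class) in each of the 4 lists (columns). Filled circles carry the number of peaks and small open circles mark genes with none. The day 0 5mC column is empty, and the 23 peaks of the day 10 5hmC column lie at 17 genes of all 8 classes.

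The sequences that best show the overlap between days are those of collagen VI genes, since the 3 regions shared by day 5 and day 10 were at Col6a3, Col6a1 and Col6a6. They are printed from the GRCm38 reference (RefSeq), 5′ to 3′ on the strand of the gene, with CpG sites in capitals. Each is the day 10 5hmC peak, or its middle 300 bases where it was longer.
Col6a3, day 10 5hmC, chr1:90833276-90833575, minus strand: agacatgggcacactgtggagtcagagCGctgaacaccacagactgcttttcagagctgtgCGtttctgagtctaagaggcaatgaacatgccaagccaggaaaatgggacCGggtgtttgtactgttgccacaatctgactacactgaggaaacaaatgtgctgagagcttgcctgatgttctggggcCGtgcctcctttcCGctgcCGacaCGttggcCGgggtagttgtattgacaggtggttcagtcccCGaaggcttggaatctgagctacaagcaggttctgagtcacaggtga
Col6a1, day 10 5hmC, chr10:76731743-76731983, minus strand: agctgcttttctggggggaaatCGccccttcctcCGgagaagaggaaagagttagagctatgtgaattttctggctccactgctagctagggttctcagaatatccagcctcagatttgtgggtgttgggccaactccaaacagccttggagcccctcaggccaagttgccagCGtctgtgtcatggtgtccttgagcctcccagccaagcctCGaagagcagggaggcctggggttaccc
Col6a6, day 10 5hmC, chr9:105774972-105775151, minus strand: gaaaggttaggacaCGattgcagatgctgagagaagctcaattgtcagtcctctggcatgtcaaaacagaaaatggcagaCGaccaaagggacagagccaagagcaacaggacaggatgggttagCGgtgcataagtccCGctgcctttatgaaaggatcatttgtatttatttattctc

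The next stretches are shown because they lie before the start of a collagen gene or over an exon near it, where most collagen peaks did not. Bases that belong to an untranslated region were left out, which shortened the stretch of Col16a1. The Col11a1 stretch was the single collagen peak without a CpG site.
Col5a1, day 10 5hmC, chr2:27881358-27881498, plus strand: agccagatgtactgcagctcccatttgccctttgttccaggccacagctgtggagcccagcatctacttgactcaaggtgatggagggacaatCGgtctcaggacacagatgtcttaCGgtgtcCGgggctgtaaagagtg
Col11a1, day 10 5hmC, chr3:114028429-114028568, plus strand: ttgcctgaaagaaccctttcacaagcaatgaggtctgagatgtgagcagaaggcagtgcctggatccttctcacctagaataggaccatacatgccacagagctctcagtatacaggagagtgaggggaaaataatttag
Col16a1, day 10 5hmC, chr4:130049186-130049326, plus strand: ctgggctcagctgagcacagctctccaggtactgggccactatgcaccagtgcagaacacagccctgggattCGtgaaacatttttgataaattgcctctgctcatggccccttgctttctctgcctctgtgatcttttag
Col6a5, day 10 5hmC, chr9:105960684-105960787, minus strand: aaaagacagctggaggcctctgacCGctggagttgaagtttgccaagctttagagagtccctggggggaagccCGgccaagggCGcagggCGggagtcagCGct

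Peaks over coding exons were also few. The wider of the Col12a1 peaks (5hmC at day 5) and the Col22a1 peak that overlaps an exon (5mC at day 10) are given by their middle 300 bases, which include flanking intron. The Col22a1 peak overlaps exon 53 and introns 52 and 53, so the overlap does not place its CpG sites in the exon.
Col12a1, day 5 5hmC, chr9:79648536-79648835, minus strand: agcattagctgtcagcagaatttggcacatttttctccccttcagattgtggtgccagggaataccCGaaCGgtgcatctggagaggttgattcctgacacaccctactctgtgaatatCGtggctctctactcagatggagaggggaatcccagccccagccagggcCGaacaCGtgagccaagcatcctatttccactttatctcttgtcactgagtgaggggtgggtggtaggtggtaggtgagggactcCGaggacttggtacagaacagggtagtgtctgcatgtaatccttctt
Col22a1, day 10 5mC, chr15:71822636-71822935, minus strand: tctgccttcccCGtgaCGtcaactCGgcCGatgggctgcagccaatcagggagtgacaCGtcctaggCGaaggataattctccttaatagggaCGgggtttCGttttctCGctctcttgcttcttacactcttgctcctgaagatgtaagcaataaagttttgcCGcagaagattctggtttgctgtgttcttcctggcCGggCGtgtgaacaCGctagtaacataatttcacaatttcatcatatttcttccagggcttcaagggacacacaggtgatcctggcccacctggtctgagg

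For 5hmC at day 10, the most widely listed mark at collagens, 17 of 44 genes (38.6%, 95% Wilson interval 25.7 to 53.4) had a peak. The same was true of 4.59% of all annotated genes, 8.31% of the 21951 protein-coding genes and 14.9% of the 5149 protein-coding genes of similar length. Similar length means between the lower and upper quartile of collagen gene lengths, 35.5 to 144.4 kb. This comparison is needed because collagen genes are long, with a median of 114.4 kb against 17.4 kb over protein-coding genes. The shortest and longest collagens lie outside that range. Of protein-coding genes, 4.51% had a day 10 5hmC peak at 7.1 to 45.75 kb and 35.6% at 140.4 to 468.4 kb. The similar length background is therefore not matched to the lengths of all 44 collagens. The interval of the collagen share lay above the shares of all annotated genes, of protein-coding genes and of those of similar length. Intervals here cover counting error only, and neighbouring genes are not independent. At day 5, 8 of 44 collagen genes (18.2%, 9.51 to 32.0) had a 5hmC peak, beside 2.81% of all genes, 5.27% of protein-coding genes and 9.38% of those of similar length. That the interval starts above 9.38% rests on Col6a1, which was counted by its symbol. By position alone it was 7 of 44 (15.9%, 7.93 to 29.4), an interval that includes the 9.11% of genes of similar length counted in the same way. The day 5 share was therefore not above that of genes of similar length beyond counting error. For 5mC at day 10 the count was 5 of 44 (11.4%, 4.95 to 24.0), beside 3.46%, 6.71% and 10.8% in the same order, so that the share was near that of genes of similar length. For 5mC at day 0 the count was 0 of 44, with a Wilson upper bound of 8.03%. The limit that a count of 0 allows, taken as 3 genes, is 6.82%. The background there was 0.334%, 0.556% and 1.07%, so a collagen share at the background level could not have been seen. The 326 peaks of that list had medians of 0.523 CpG sites per 100 bp and 78.7% repeat bases. None of them overlapped a peak of another list. Over any list, 22 of 44 collagen genes stood beside 15.9% of protein-coding genes and 27.9% of those of similar length.

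**Figure D2:**
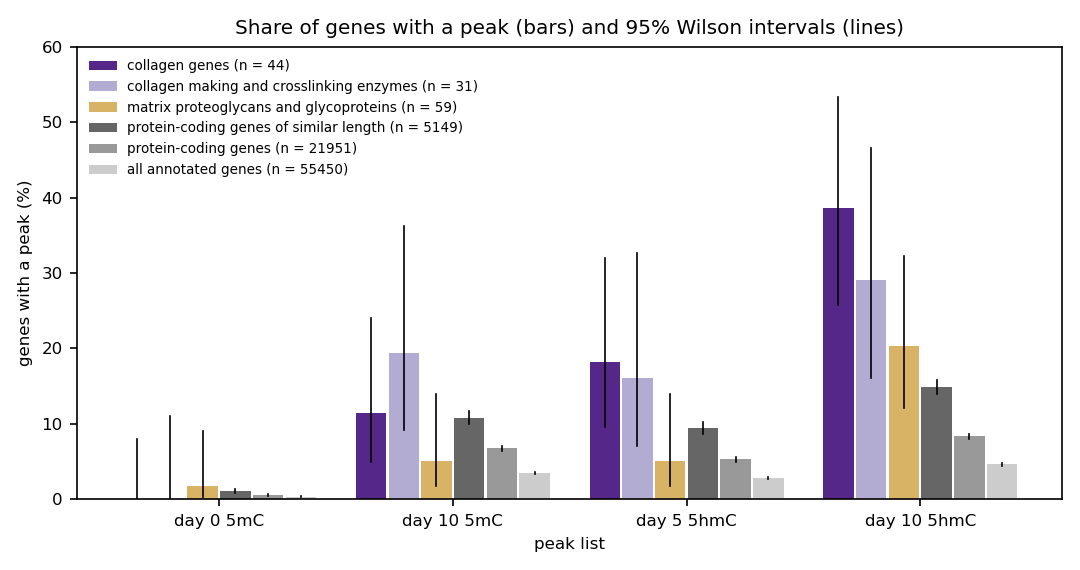
Share of genes with a peak in each list (y axis, %) for collagens, the enzymes that make and crosslink collagen, other matrix proteins, and 3 backgrounds. Bars give the share and lines the 95% Wilson interval. In the day 10 5hmC list the collagen bar stands at 38.6%, against 14.9% for protein-coding genes of similar length.

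Counts per length of gene body take the length of collagens into account. Over 5.365 Mb of collagen gene body there were 3.54 day 10 5hmC peaks per Mb (exact Poisson 95% interval 2.13 to 5.53, 19 peaks), against 2.11 over protein-coding bodies and 2.47 over those of similar length. The lower bound lay just above the first of these densities and below the second. Without Col14a1, which had 3 of the peaks, the density was 3.11 per Mb (1.78 to 5.04), whose interval includes both. Per length of body, the difference from either background was thus not beyond counting error once Col14a1 was left out, nor at all from genes of similar length. Day 5 5hmC gave 1.49 per Mb (0.644 to 2.94, 8 peaks) against 1.11 and 1.38, which the counting error covers. Day 10 5mC gave 1.12 per Mb (0.410 to 2.43, 6 peaks) against 1.53 and 1.77, again within counting error. Both X-linked collagens, Col4a5 and Col4a6, had no peak. On the autosomes alone, where these bodies without a peak are left out, the day 10 5hmC density was 3.92 per Mb (2.36 to 6.13). Over protein-coding bodies it was 2.20. The autosome value was not computed without Col14a1 or beside genes of similar length, so it does not change the reading above.

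Collagen genes with and without peaks in any list also differed in length. The 22 genes with a peak had a median length of 132.8 kb and the 22 without one 45.4 kb. Of the 15 shortest collagens (7.1 to 45.75 kb), 2 had a day 10 5hmC peak, beside 4.51% of protein-coding genes in that range. These were Col11a2 and Col6a1, the latter counted by its symbol alone. Col6a1 is in the same way among the shortest collagens counted for 5hmC at day 5. Of the middle 15 (51.4 to 138.4 kb) it was 8, beside 18.1%, and of the 14 longest (140.4 to 468.4 kb) it was 7, beside 35.6%. For 5mC at day 10 the counts were 0, 1 and 4, beside 4.61%, 12.3% and 23.6%. For 5hmC at day 5 the counts were 2, 4 and 2, beside 3.30%, 10.9% and 20.2%, and the median lengths with and without a peak, 120.4 and 110.9 kb, were close to each other.

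The regions shared by the 5hmC lists of both days were at collagen VI genes. Collagen VI chains assemble into beaded microfilaments of the pericellular matrix, with the long alpha 3 type chains (Col6a3, Col6a4, Col6a5 and Col6a6) replacing one another. Of the 9 collagen 5hmC peaks of day 5, 3 overlapped a day 10 5hmC peak (33.3%, Wilson interval 12.1 to 64.6), which is the share of the whole list within counting error (609 of 2058, 29.6%). Of the 23 collagen peaks of day 10, 3 overlapped one of day 5 (13.0%, 4.54 to 32.1), against 710 of 4164 (17.1%) in the whole list. The 3 regions are too few to set collagen VI apart from other genes. At each, the day 10 peak lay wholly inside the day 5 peak. In intron 1 of Col6a3 the day 5 peak (chr1:90833016-90833750, 735 bp) held the day 10 peak (chr1:90833270-90833581, 312 bp), which covered 42.5% of it. Before Col6a1 the day 5 peak (chr10:76731274-76732501, 1228 bp) held a day 10 peak of 241 bp (chr10:76731743-76731983), 19.6% of its width. In intron 7 of Col6a6 the day 5 peak (chr9:105774886-105775511, 626 bp) held a day 10 peak of 180 bp (chr9:105774972-105775151), 28.8% of its width. The ratios of width, 2.36, 5.10 and 3.48, stand beside a median width over the whole lists of 819 bp (day 5) and 147 bp (day 10). The part of the change in peak width in these ratios was not tested. With an overlap of at least 50% of both peaks required, none of the 3 pairs remained.

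The Col6a1 peaks were 5106 bp (day 5) and 5575 bp (day 10) before the start of the gene, just outside the 5000 bp limit, and were included by their symbol. The peak just inside that limit was at Col5a1, 4927 bp before its start. Col6a3 had a further day 10 peak in intron 9 (chr1:90804704-90804854, 151 bp), 28.2 kb from its day 5 peak. Col6a5 had a day 10 peak of 104 bp that ended 41 bp before the gene's start (chr9:105960684-105960787). With 5 CpG sites, or 4.81 per 100 bp, it was the collagen peak richest in CpG. Col6a6 also had a 5mC peak at day 10 in intron 2 (chr9:105787627-105788394, 768 bp), 12.5 kb from its day 10 5hmC peak. The introns of Col6a6 are numbered on the transcript named by the authors, which has 8 exons. Col6a2, which encodes the alpha 2 chain, and Col6a4 had no peak. The nearest day 10 5hmC peak lay 9.08 kb before the start of Col6a2. Col6a6, Col6a5 and Col6a4 lie next to each other on chromosome 9, with gaps of 27.9 and 28.8 kb.

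Collagen genes with 5hmC on both days were 4 of 44 (9.09%, Wilson interval 3.59 to 21.2), Col6a1, Col6a3, Col6a6 and Col27a1. Beside them stood 1.26% of all annotated genes, 2.54% of protein-coding genes and 4.14% of those of similar length, which the interval includes. Col6a1 was counted by its symbol alone on both days. A further 4 genes (Col3a1, Col5a2, Col12a1 and Col25a1) were listed at day 5 alone and 13 at day 10 alone. The number of listed collagen genes at day 10 was 2.12 times that at day 5, against 1.58 times for protein-coding genes. For the number of peaks the ratio was 2.56 at collagens and 2.02 over all peaks. The collagen ratios rest on small counts and carry no interval. Which of these genes gained or lost the mark cannot be read from presence in a list, since width and number of peaks changed over the whole genome.

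Among fibrillar collagens, which form the striated fibrils, 3 of 11 had a 5hmC peak at day 5 (27.3%, Wilson interval 9.75 to 56.6). At day 10 it was 5 of 11 (45.5%, 21.3 to 72.0). The shares on these days were 2.81% and 4.59% of all annotated genes, and 9.38% and 14.9% of genes of similar length. That length range is the range of all collagens and was not set for each class. Col3a1, the collagen of reticular fibres, and Col5a2, a chain of the collagen that sets fibril diameter, had day 5 peaks and none at day 10. The Col3a1 peak spanned the start and exon 1 of the gene (chr1:45311520-45311974, 455 bp, 1.32 CpG sites per 100 bp) and also a miRNA gene annotated there, Gm47302. The Col5a2 peak was in intron 1 (chr1:45496277-45496674, 398 bp), 6608 bp after the start. These genes are neighbours that end 24.6 kb from each other, and their peaks were at their far ends. Col5a1, the partner chain of Col5a2, had the reverse pattern, with no peak at day 5 and 2 at day 10. One was upstream (chr2:27881358-27881498, 141 bp) and one in intron 1 (chr2:27899569-27899791, 223 bp), 18.1 kb apart.

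Col11a1 and Col11a2 encode chains of collagen XI, the core of cartilage fibrils, and each had 1 day 10 5hmC peak close to its start. The Col11a1 peak (chr3:114028429-114028568, 140 bp) lay 1972 bp before the start, with no CpG site in it and 2.14 per 100 bp in its flanks. The Col11a2 peak (chr17:34040329-34040473, 145 bp) was in intron 1, its midpoint 964 bp after the start. Of the 4164 day 10 5hmC peaks, 273 held no CpG site. Col24a1 and Col27a1, the fibrillar collagens of developing bone and cartilage, had peaks of both marks at day 10. In Col24a1 the 5mC peak (chr3:145402012-145403109, 1098 bp, intron 22) lay 19.4 kb before a 5hmC peak in intron 24 (chr3:145422477-145422623, 147 bp). A further 5hmC peak was in intron 47 (chr3:145498292-145498458, 167 bp). Col27a1 carried, in order along the gene, a day 5 5hmC peak in intron 1 (chr4:63216839-63218511), a day 10 5mC peak in intron 5 (chr4:63238797-63239858, 1062 bp) and a day 10 5hmC peak in intron 7 (chr4:63250253-63250464, 212 bp). The day 5 peak was the widest collagen peak, with 1673 bp, and its 1.20 CpG sites per 100 bp were below the 3.38 of its flanks. The gaps between these peaks were 20.3 kb and 10.4 kb.

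The FACIT collagens bind to the surface of fibrils. At day 5, 1 of 9 had a 5hmC peak (11.1%, Wilson interval 1.99 to 43.5) and at day 10, 2 of 9 (22.2%, 6.32 to 54.7). These intervals include the shares of genes of similar length, 9.38% and 14.9%. Col12a1 had 2 day 5 peaks, both over coding exons and 8.09 kb apart (chr9:79639488-79640153, 666 bp, and chr9:79648247-79649123, 877 bp). Col14a1, a close relative of Col12a1, had 3 day 10 peaks, the most of any collagen gene in 1 list. They were in intron 14 (chr15:55393417-55393809, 393 bp) and, 7.30 kb from each other near the end of the gene, in intron 45 (chr15:55508239-55508487, 249 bp, and chr15:55515786-55515914, 129 bp). The Col16a1 peak of day 10 (chr4:130049186-130049447, 262 bp) was in intron 1 of the transcript named by the authors, and overlapped a non-coding exon of another transcript. Col22a1, a collagen of tissue junctions, was the gene with 5mC peaks and no 5hmC peak. Its 5mC peaks were 61.9 kb apart. The peak that overlapped exon 53 of 64 (chr15:71822366-71823204, 839 bp) also covered parts of introns 52 and 53, and 39.45% of its bases were repeat. The other was in intron 39 (chr15:71885105-71886113, 1009 bp).

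Collagen IV forms the network of basement membranes, and its genes lie in pairs that start side by side on opposite strands. At day 10, 2 of 6 had a 5hmC peak and at day 5 none. Col4a2 had one in intron 3 (chr8:11327429-11327734, 306 bp), and Col4a3 had one in intron 1 (chr1:82634582-82634788, 207 bp), 47.7 kb after the start. Their partners Col4a1 and Col4a4 had none. Seen from the start of those partners, the same peaks lay 14.6 and 47.7 kb away. The Col4a3 peak had 4.35 CpG sites per 100 bp against 0.966 in its flanks.

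The remaining classes had 1 or 2 listed genes each. Col8a1, a short chain network collagen, had 2 day 10 5hmC peaks in intron 1, 3.46 kb apart (chr16:57740034-57740165, 132 bp, and chr16:57743626-57743766, 141 bp). Col18a1, whose C-terminal fragment is endostatin, had a day 10 5hmC peak in intron 2 (chr10:77151044-77151288, 245 bp). Of 4 transmembrane collagens, Col23a1 was listed at day 10 (intron 3, chr11:51518816-51518942, 127 bp) and Col25a1 at day 5 (intron 15, chr3:130524848-130525377, 530 bp). A day 5 5hmC peak lay 1.43 kb beyond the end of Col23a1, outside the rule. Col26a1 had a day 10 5hmC peak in intron 3 (chr5:136784498-136784753, 256 bp) and a 5mC peak in intron 1 (chr5:136868168-136869284, 1117 bp), 83.4 kb apart. The 5mC peak also lay in Gm20485, an RNA gene annotated inside that intron.

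**Figure D3:**
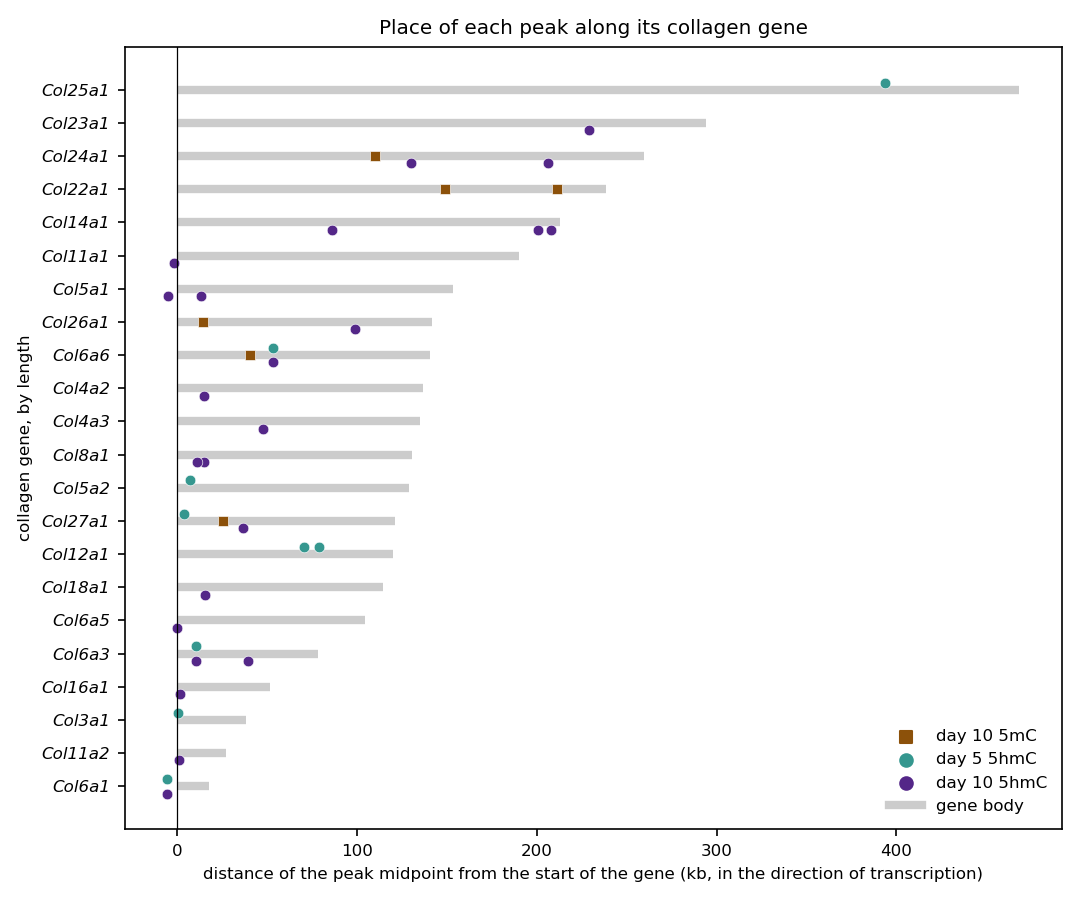
Midpoint of each of the 38 collagen peaks, in kb from the start of its gene, for the 22 genes with a peak in order of length. Grey bars are gene bodies, circles 5hmC peaks (day 5 above the bar, day 10 below) and squares 5mC peaks. Of the 23 day 10 5hmC peaks, 12 lie within 20000 bp of a gene start, and the shared positions are at Col6a1, Col6a3 and Col6a6.

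In place, collagen peaks were mostly intronic. Of the 38, 33 overlapped a gene body, and of those 28 (84.8%) were in introns, 4 over coding exons and 1 over a non-coding exon. Of the intronic peaks 10 were in intron 1, of which 9 were 5hmC. For 5hmC at day 10, 18 of 19 peaks in bodies were intronic, beside 87.0% of all such peaks in protein-coding genes. At day 5 it was 5 of 8, beside 69.8%. For 5mC at day 10 it was 5 of 6, beside 41.2%, so that overlap with an exon, seen in much of that list, was at 1 collagen peak. With 6 peaks this comparison has little precision. By midpoint, 8 of 19 day 10 5hmC peaks, 4 of 8 day 5 5hmC peaks and 2 of 6 day 10 5mC peaks were in the first 25% of the gene, beside 25.7%, 25.6% and 19.5% of all peaks in protein-coding genes.

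No collagen 5mC peak overlapped a 5hmC peak, as was the case for most peaks, since 20 of the 2401 day 10 5mC peaks (0.833%) overlapped a day 10 5hmC peak. At gene level the marks met in 4 of 44 collagens at day 10 (Col6a6, Col24a1, Col26a1 and Col27a1), beside 1.85% of protein-coding genes and 3.01% of those of similar length. The shortest gap between the marks was the 10.4 kb in Col27a1.

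In width, collagen peaks followed their lists. Median widths were 1036 bp for day 10 5mC (all peaks of the list 1006 bp), 666 bp for day 5 5hmC (819 bp) and 180 bp for day 10 5hmC (147 bp). The median CpG content was 1.58 sites per 100 bp for 5mC at day 10 (list 2.42), 1.32 for 5hmC at day 5 (1.61) and 2.04 for 5hmC at day 10 (1.80). Collagen gene bodies as a whole had 0.957 CpG sites per 100 bp and protein-coding bodies 0.984. CpG content was above that of flanks of the same width 2000 bp away in 6 of 6 collagen 5mC peaks, 6 of 9 at day 5 and 18 of 23 at day 10. Flanks were measured for collagen peaks only. These counts therefore have no share over the whole lists beside them and do not set collagen peaks apart. The part of CpG content in the capture of these regions was not tested. The share of bases marked as repeat had a median of 21.3% for 5mC at day 10, 13.6% for 5hmC at day 5 and 6.54% for 5hmC at day 10. Over all peaks of these lists it was 14%, 10.6% and 0%, lower in each.

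**Figure D4:**
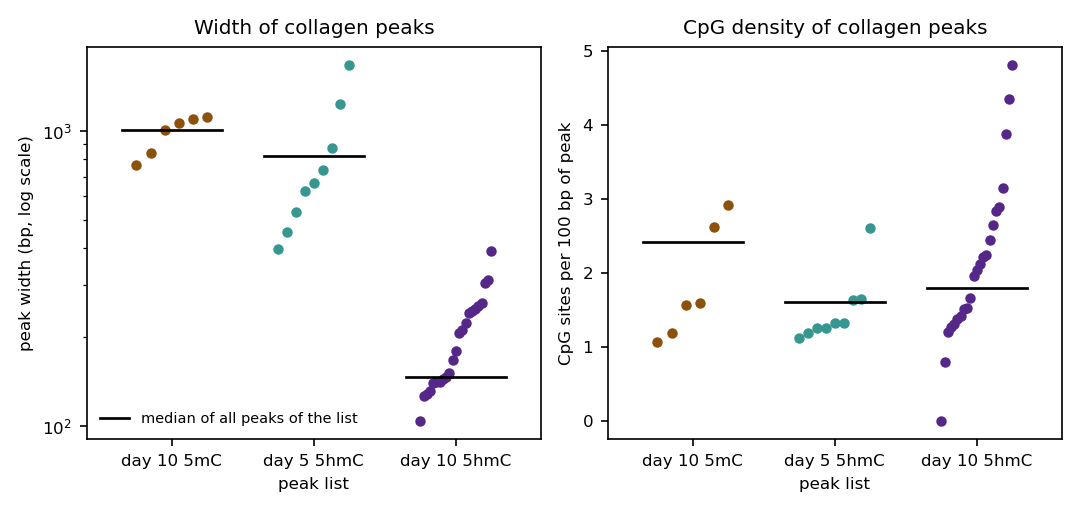
Width (left, bp, log scale) and CpG sites per 100 bp (right) of each collagen peak in 3 lists, sorted within a list, with the median of all peaks of that list as a black line. Day 10 5hmC collagen peaks, with a median of 180 bp, are narrower than those of day 5 and of 5mC, as in the whole lists.

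Strings bound by factors of chondrogenesis were searched in the 300 bp around each peak midpoint, on both strands. They were TGAGTCA or its reverse complement TGACTCA (AP-1), CTGCCAAG or TTGCCAAG (NF1), AACCACA (RUNX) and ACAATGG or ACAAAGG (SOX). AP-1 strings were in 2 of 9 collagen windows at day 5, beside 25.8% of the list, and in 4 of 23 at day 10, beside 13.0%. They were at Col6a3 on both days, at Col27a1 at day 5, and at Col8a1 and both Col5a1 peaks at day 10. In the printed Col6a3 stretch the string reads tgagtca and in the upstream Col5a1 stretch tgactca. SOX strings were at Col3a1 and Col5a2 at day 5 (2 of 9, list 10.5%) and at Col5a1 and Col24a1 at day 10 (2 of 23, list 9.29%). NF1 strings were at Col25a1 at day 5 (1 of 9, list 6.27%) and at Col4a3 and Col6a5 at day 10 (2 of 23, list 333 of 4164). RUNX strings were at Col27a1 at day 5 (1 of 9, list 11.4%) and at Col23a1 and Col11a1 at day 10 (2 of 23, list 13.1%), that of Col11a1 outside the peak itself. Of the 6 5mC windows, 1 at Col22a1 held AP-1 (list 3.92%) and SOX strings (8.46%). Counts this small allow no reading of a difference from the list, and a match of letters is not a binding site.

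Of the 8 collagens of cartilage fibrils and hypertrophic cartilage, 3 had a day 10 5hmC peak (Col11a1, Col11a2 and Col27a1), and Col27a1 was also listed for day 5 5hmC and for day 10 5mC. The day 10 5hmC share (37.5%, Wilson interval 13.7 to 69.4) stood beside 8.31% of protein-coding genes. It was 14.9% for those of similar length, which the interval includes. Col2a1, the major cartilage collagen, Col9a1, Col9a2 and Col9a3, the chains of collagen IX, and Col10a1, the collagen of hypertrophic chondrocytes, had none in any list. Of these, Col2a1 (29.1 kb), Col9a2 (15.9 kb), Col9a3 (24.4 kb) and Col10a1 (7.1 kb) are among the 15 shortest collagens. In that length range 4.51% of protein-coding genes had a day 10 5hmC peak and 3.30% a day 5 one. Col11a2 (27.25 kb), which was listed, is in that range too. The part of gene length in these absences was not tested. The nearest day 10 5hmC peak lay 23.0 kb before the start of Col2a1. It was 63.8 kb away for Col9a2, 190.1 kb for Col10a1, 657.2 kb for Col9a3 and 3030 kb for Col9a1. The nearest at day 5 was 103.2 kb from Col2a1, 63.6 kb from Col9a2, 85.4 kb from Col10a1, 364.3 kb from Col9a3 and 2434 kb from Col9a1. Col1a1 and Col1a2, the chains of collagen I of bone and tendon, were likewise not listed, with the nearest day 10 5hmC peak 173.6 and 126.8 kb away. The further genes without a peak were Col4a1, Col4a4, Col4a5, Col4a6, Col5a3, Col6a2, Col6a4, Col7a1, Col8a2, Col13a1, Col15a1, Col17a1, Col19a1, Col20a1 and Col28a1. Absence is bounded by the fold limit of each list, the unknown depth and the unnamed sample set against each list. For Col2a1 the study itself reports 5hmC that rose with differentiation, seen at day 10 by its own days. It also measured 5hmC at single sites of Col2a1 at day 5. The absence of Col2a1 from the lists is therefore not an absence of the mark.

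**Figure D5:**
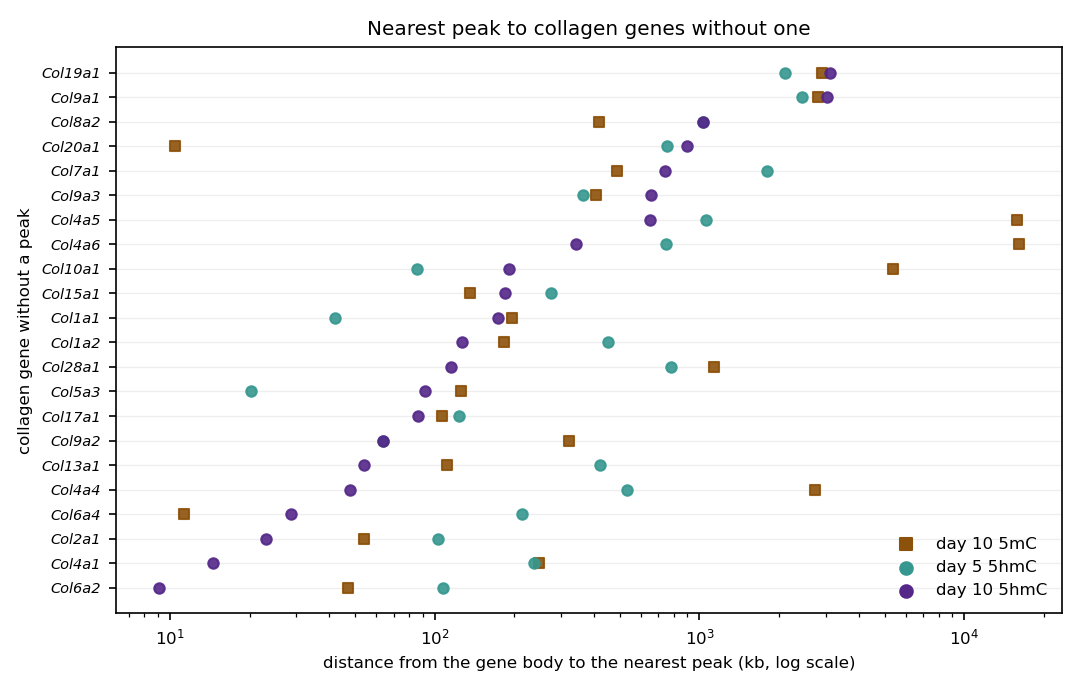
Distance (kb, log scale) from the body of each of the 22 collagen genes without a peak to the nearest peak of 3 lists. Genes are ordered by the distance to the nearest day 10 5hmC peak, which runs from 9.08 kb for Col6a2 to 3115 kb for Col19a1. Col9a2 and Col8a2 have day 5 and day 10 5hmC points that coincide.

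The enzymes that modify, fold, cleave and crosslink collagen were also listed, for the most part with 5hmC at day 10. Of 31, 9 had a day 10 5hmC peak (29.0%, Wilson interval 16.1 to 46.6), 5 a day 5 5hmC peak (16.1%) and 6 a day 10 5mC peak (19.4%). In the same order, such peaks were at 4.59%, 2.81% and 3.46% of all annotated genes. Over protein-coding genes it was 8.31%, 5.27% and 6.71%, and these were not matched to the enzymes for length. With a day 10 5hmC peak were the prolyl 4-hydroxylase subunits P4ha1 and P4ha3, the prolyl 3-hydroxylases P3h1, P3h2 and P3h3, the procollagen N-proteinases Adamts2 and Adamts3, the tolloid-like proteinase Tll2 and the lysyl oxidase relative Loxl3. At day 5 it was P4ha3, Adamts2, Loxl3, the lysyl oxidase gene Lox and the galactosyltransferase gene Colgalt2. P4ha3, Adamts2 and Loxl3 were listed for 5hmC on both days. With 5mC at day 10 were P4ha1, P3h3, Crtap, Adamts2, Tll2 and Loxl4. Serpinh1, the collagen chaperone, had no peak. Of 59 matrix proteoglycans and glycoproteins, 12 (20.3%) had a day 10 5hmC peak, 3 a day 5 5hmC peak (Tnxb, Fbn1 and Lama5), 3 a day 10 5mC peak (Fn1, Fbn2 and Spp1) and 1, the fibrillin gene Fbn1, a day 0 5mC peak. The day 5 5hmC and day 10 5mC shares, 5.085% each, were not above those of protein-coding genes. For day 0 5mC the share was 1.7% (Wilson interval 0.3 to 9.0), beside 0.556% of protein-coding genes. The 12 with a day 10 5hmC peak were Hapln1, Ogn, Thbs4, Matn3, Tnn, Tnr, Fbn1, Eln, Fbln1, Nid2, Lama3 and Lamc3. The intervals of the 3 day 10 5hmC shares overlap, and no difference between collagens and these groups was tested.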

How the data were processed

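Genomic DNA of ATDC5 cells was enriched for 5mC with a methyl-CpG binding complex and for 5hmC by glucosylation and capture. Per the study's methods and the submitters' processing notes, the authors trimmed reads (cutadapt), aligned them to GRCm38 with BWA and called peaks with MACS 1.4.2. The deposited lists hold peak positions, a gene symbol and an accession, with no score, fold or p-value, and empty rows (27818 and 25449) of the 5hmC files were dropped. The study's methods describe the calls, at default settings, as a search for 5mC or 5hmC gained or lost from progenitors to chondrocytes. No source used here names the sample set against each list, so the lists may hold differences between samples. The input sample was not analysed here.

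Positions were read as 1-based with both ends included. Gene bodies came from GENCODE release 21 and exon numbers from RefSeq transcripts of GRCm38.p6, where 21 of 22 accessions were found (Col12a1's was not). Shares carry Wilson and densities exact Poisson intervals (95%, scipy 1.17.1). The assignment of peaks to genes was checked on simulated peaks. Named were all collagens with a peak, the cartilage collagens and listed members of the enzyme and matrix lists. Printed sequences were peaks shared between lists, then peaks at exons or before starts, at most 10, so the narrower Col12a1 peak is not shown, and 1 further stretch is not reported here. The members and lists were chosen with earlier results of these data known.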

Additional observations from a re-analysis of the deposited data

How the results depend on the processing

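The number of collagen genes with a peak was counted with peaks assigned to genes by position alone, by the authors' symbol alone, by gene body alone, with 2000 or 10000 bp upstream, by midpoint, or with RefSeq gene spans, the last chosen after seeing the data. The count was 14 to 18 for 5hmC at day 10, 7 to 8 for 5hmC at day 5, 4 to 5 for 5mC at day 10 and 0 for 5mC at day 0. The genes that changed were Col6a1, Col26a1, Col11a1 and Col6a5, which were lost under some rules, and Col6a2, which was gained with 10000 bp. In the 4 alternatives without Col6a1, the day 5 5hmC share had a Wilson lower bound of 7.93%, below the 9.11% of genes of similar length by position alone, and with 10000 bp it was 9.51% against 9.83%. Without the gene with the most peaks, the density per Mb of body was 3.11 for 5hmC at day 10, with a lower bound of 1.78 that was below the density of all protein-coding bodies, 1.14 for 5hmC at day 5 and 0.780 for 5mC at day 10. The background also moved: the percent of genes with a peak, over protein-coding genes and over those of similar length, was 0.556 and 1.07 for 5mC at day 0, 6.71 and 10.8 for 5mC at day 10, 5.27 and 9.38 for 5hmC at day 5, and 8.31 and 14.9 for 5hmC at day 10. With an overlap of 50% of both peaks required, 0 collagen peaks of day 5 were shared with day 10, because the day 10 peaks were at most 42.5% as wide. No paired analysis was possible because each 5hmC list pools its numbered samples, and for that reason no replicate could be left out. A stricter threshold was not run, as the lists hold no fold or score. The unknown depth and the unnamed sample set against each list limit every count and every absence.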
